A study of Mus musculus with 10 samples.

Results

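The genes described here are 9 collagen genes of the mouse, Col1a1, Col1a2, Col3a1, Col5a1, Col5a2, Col5a3, Col11a1, Col12a1 and Col14a1. They were taken by symbol from the authors' deposited normalized table, out of 21211 genes named on the array, with all 21 of their probes. The genes were selected on their measured Mes minus Epi difference in log2 signal, so that difference is given as a description and carries no test. The set is grouped under the name fibrillar collagens, but Col12a1 and Col14a1 encode collagens of the FACIT class, which sit on the surface of fibrils and do not form them.

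Messenger RNA was measured in 5 lines labelled Mes and 5 lines labelled Epi, with 1 array per line. All were grown out from single clones of mouse small cell lung cancer that lacked the neuroendocrine (NE) state, in RPMI1640 with 10% FBS and without treatment. The genotype given for all 10 lines is RbL/L, Trp53L/L, in which L usually stands for an allele flanked by loxP sites, and the labels name no Cre driver. The labels spell out neither Mes nor Epi, nor do they give the tumour or animal of origin of a line. Every p-value therefore covers the spread among these 10 lines alone, and the number of arrays limits the precision.

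Fibrillar collagens are secreted proteins that assemble outside the cell into the fibrils that give tissue its tensile strength. Collagen I is built from the products of Col1a1 and Col1a2, collagen III from Col3a1 alone, and collagens V and XI join these fibrils and govern where they start and how wide they grow. In lung and in lung tumours fibroblasts are the usual main source of collagens I and III, while tumour cells can make them as well.

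The promoters of 3 members are shown because, among the members with a matched promoter, their genes differed most between the groups (Col1a2 and Col5a3) or stayed bright in every line (Col3a1). The sequences are from RefSeq on build GRCm38.p6, each with 250 bases before the annotated transcript start and the first 30 bases from it, and RefSeq promoters were matched for 5 of the 9 members. Capitals mark matches on either strand to CCAAT, the box bound by NF-Y, to GGGCGG, a GC box bound by Sp1, and to TATAA, the core of the TATA box. A match on the opposite strand is printed as its reverse complement. The Col1a2 window is chr6:4505368-4505647 on the plus strand, the Col5a3 window chr9:20815038-20815317 on the minus strand, and the Col3a1 window chr1:45311288-45311567 on the plus strand.
Col1a2: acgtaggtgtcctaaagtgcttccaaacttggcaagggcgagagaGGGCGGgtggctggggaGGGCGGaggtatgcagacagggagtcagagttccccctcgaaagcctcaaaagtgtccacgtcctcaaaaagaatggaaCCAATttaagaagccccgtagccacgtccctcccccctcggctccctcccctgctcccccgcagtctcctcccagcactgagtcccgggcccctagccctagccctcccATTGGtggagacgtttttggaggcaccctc
Col5a3: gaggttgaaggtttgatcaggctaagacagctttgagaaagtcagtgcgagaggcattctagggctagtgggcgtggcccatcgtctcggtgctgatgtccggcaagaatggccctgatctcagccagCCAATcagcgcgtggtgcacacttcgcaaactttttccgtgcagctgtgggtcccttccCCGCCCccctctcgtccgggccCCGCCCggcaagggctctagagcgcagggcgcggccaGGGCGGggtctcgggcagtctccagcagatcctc
Col3a1: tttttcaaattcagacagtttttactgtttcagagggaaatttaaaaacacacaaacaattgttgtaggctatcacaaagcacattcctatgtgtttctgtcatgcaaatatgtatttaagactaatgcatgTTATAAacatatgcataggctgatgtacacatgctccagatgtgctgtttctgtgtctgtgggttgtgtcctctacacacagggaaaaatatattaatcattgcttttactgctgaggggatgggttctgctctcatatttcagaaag

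Over 32851 promoter windows of this length, 36.1% held CCAAT, 34.7% held GGGCGG and 24.04% held TATAA. Col1a2 and Col5a3 both held CCAAT and GGGCGG. Col1a2 had 2 matches to each, and Col5a3 had 1 match to CCAAT and 3 to GGGCGG. In Col1a2 the plus-strand CCAAT began 109 bases before the start, and the other match lay on the opposite strand at the first bases of the transcript. In Col5a3 the single CCAAT began 122 bases before the start. Col3a1 held neither motif, and its 2 TATAA matches lay on opposite strands and overlapped within TTATAA, 118 bases before the start. The windows of Col5a1 and Col11a1 each had 2 GGGCGG matches, and Col11a1 also had 1 CCAAT match. The matches are a description of letters and not of bound sites.

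Values are log2 of the quantile-normalized signal of the brightest tested probe of each gene, and differences are Mes minus Epi, with standard errors (SE) from limma. A probe was tested when its spot was well above background, by the scanner software's flag, on all 5 arrays of at least 1 group, and 24475 probes and 13202 genes were tested. The lowest signal above background lay between 2.001 and 2.68 on the 10 arrays, and 60.4% to 64.4% of the probes were above background on an array. Correlations between arrays across probes were 0.903 to 0.939 between the groups, 0.948 to 0.986 among Mes lines and 0.959 to 0.984 among Epi lines. Mes2 and Mes3 were the closest Mes pair (0.986), and Epi3, Epi4 and Epi5 were closest to each other (0.981 to 0.984), so the lines of a group were not equally distinct. Mes3, Mes4 and Epi2 shared slide 2, the one slide with lines of both groups. The other Mes lines were on slide 3 and the other Epi lines on slide 1.

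**Figure D1:**
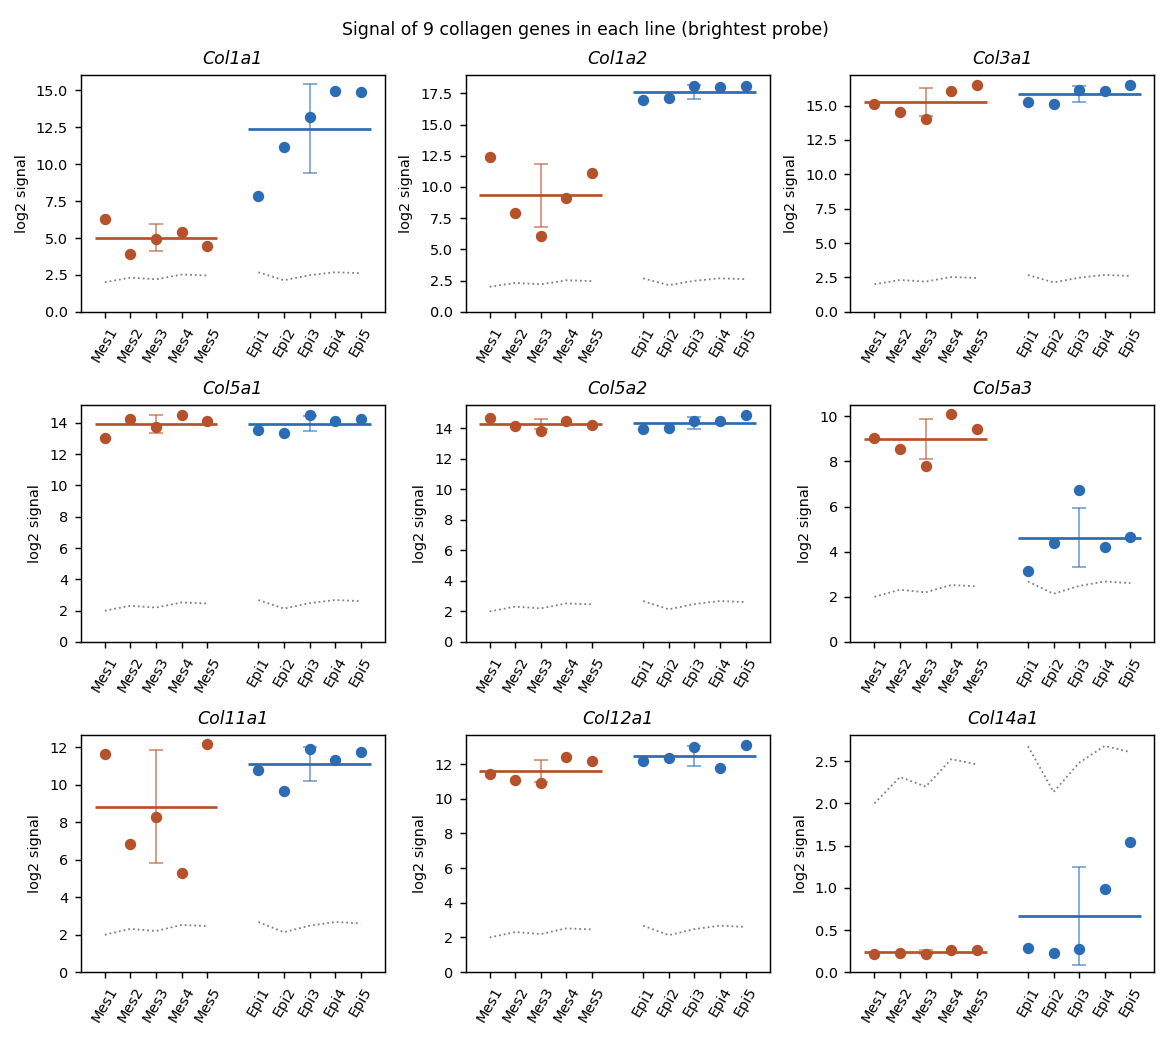
Log2 signal of the brightest probe of each of the 9 genes in every line, with Mes lines in red at the left and Epi lines in blue at the right. Points are single arrays, thick lines are group means, bars are SD over 5 lines, and the dotted line is the lowest signal above background on each array. Col1a1 and Col1a2 lay lower in every Mes line than in any Epi line, Col5a3 lay higher, and Col14a1 lay below the dotted line on all 10 arrays.

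Both genes of collagen I were lower in every Mes line than in any Epi line. On the Col1a2 probe at chr6:4490619-4490678 (mm9, plus strand), signal was 12.43 in Mes1, 7.90 in Mes2, 6.05 in Mes3, 9.13 in Mes4 and 11.15 in Mes5. It was 16.94 in Epi1, 17.13 in Epi2, 18.06 in Epi3, 18.03 in Epi4 and 18.06 in Epi5. The Mes lines were spread over 6.38 log2 units, with Mes3 lowest and Mes1 highest, while the Epi lines lay within 1.11 of each other near the top of the scale. The means were 9.33 ± 2.54 in Mes and 17.64 ± 0.56 in Epi lines (SD, n = 5 each), a difference of -8.31 (SE 1.02), or 318-fold. In these bulk samples, fewer cells making a transcript and less transcript per cell cannot be told apart.

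Col1a1, which encodes the other chain of collagen I, was measured at chr11:94813075-94813134 (mm9, plus strand). Its signal was 6.31 in Mes1, 3.92 in Mes2, 4.93 in Mes3, 5.43 in Mes4 and 4.46 in Mes5. The Epi lines gave 7.84 in Epi1, 11.18 in Epi2, 13.18 in Epi3, 14.97 in Epi4 and 14.91 in Epi5. Here the Mes lines spanned 2.39 log2 units and the Epi lines 7.13, and Epi1 lay nearer to Mes1 than to any other Epi line. The means were 5.01 ± 0.92 in Mes and 12.41 ± 2.99 in Epi lines (SD, n = 5 each), a difference of -7.41 (SE 1.22), or 170-fold. Without Epi1 the difference was -8.55, and with normexp background correction it was -5.12.

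On their brightest probes, the 2 genes of collagen I thus had their wider spread in different groups of lines. Mes5 had the second-highest Col1a2 among Mes lines and the second-lowest Col1a1. Epi1 had the lowest Col1a1 among Epi lines, while its Col1a2 signal of 16.94 lay 1.11 below the highest Epi line. The log2 difference between the Col1a1 and Col1a2 probes, which can be compared only between lines, ran from -6.70 in Mes5 to -1.12 in Mes3 and from -9.11 in Epi1 to -3.07 in Epi4. Both genes had Epi1 and Epi2 as their lowest Epi lines. Their deviations from the group means correlated at r = 0.93 among Epi lines, 0.51 among Mes lines and 0.34 over all 10. A dimmer Col1a2 probe spanned 2.57 log2 units among Epi lines, from 6.97 in Epi1 to 9.54 in Epi5.

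**Figure D2:**
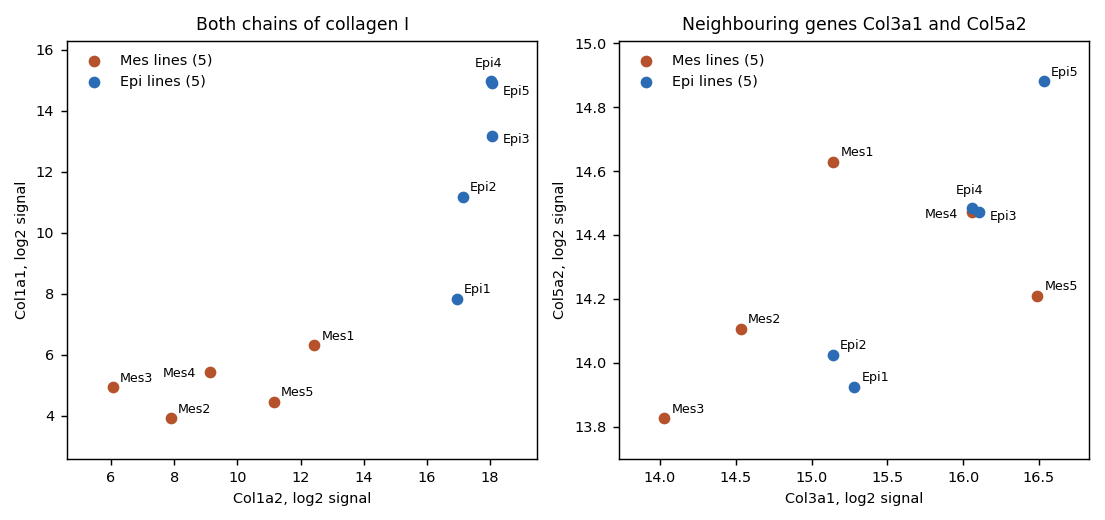
Log2 signal of Col1a1 against Col1a2 (left panel) and of Col5a2 against Col3a1 (right panel) in every line, with 5 Mes lines in red and 5 Epi lines in blue. The groups separate on both axes at the left, where Mes lines spread along Col1a2 and Epi lines along Col1a1, and they overlap on both axes at the right.

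Other probes of collagen I also lay lower in Mes lines. A further Col1a2 probe, at chr6:4463773-4463832, was above background on 1 of 5 Mes and all 5 Epi arrays, and was at least 60.7-fold lower in Mes lines. That bound sets the Epi mean against the higher of the probe's own signal and the lowest signal above background on each Mes array. Of the other Col1a1 probes, the one at chr11:94812052-94812111 was above background on 3 Mes and 5 Epi arrays and at least 144-fold lower in Mes lines. The one at chr11:94799277-94799336, above background on 0 Mes and 4 Epi arrays, was not tested. Within slide 2 the differences of the brightest probes were -9.55 for Col1a2 and -6.00 for Col1a1, which set Mes3 and Mes4 against Epi2 alone.

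Col3a1, the single chain of collagen III, was bright in all 10 lines, and the groups overlapped. At chr1:45405589-45405648 (mm9, plus strand) it gave 15.14 in Mes1, 14.53 in Mes2, 14.03 in Mes3, 16.06 in Mes4 and 16.49 in Mes5. The Epi lines gave 15.28 in Epi1, 15.14 in Epi2, 16.11 in Epi3, 16.06 in Epi4 and 16.53 in Epi5. Mes4 and Mes5 lay within the upper part of the Epi range, while Mes2 and Mes3 lay below every Epi line. The means were 15.25 ± 1.03 in Mes and 15.82 ± 0.59 in Epi lines (SD, n = 5 each), a difference of -0.57 (SE 0.47), and of -0.10 within slide 2. The other 2 Col3a1 probes differed by -1.13 (SE 0.58) and -1.08 (SE 0.58), with overlapping groups on both. Within slide 2 they differed by 0.10 and -0.54.

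The chains of collagen V did not move together. Col5a1 and Col5a2, the chains of the common form of collagen V, were bright in every line and overlapped between the groups. Col5a1, at chr2:27892892-27892951 (mm9, plus strand), averaged 13.92 ± 0.56 in Mes and 13.96 ± 0.51 in Epi lines (SD, n = 5 each), a difference of -0.04 (SE 0.31). This sign was not stable, being 0.77 within slide 2. Col5a2, at chr1:45433621-45433680 (mm9, minus strand), averaged 14.25 ± 0.31 in Mes and 14.36 ± 0.39 in Epi lines (SD, n = 5 each), a difference of -0.11 (SE 0.22), and 0.12 within slide 2. Its lines spanned 0.80 log2 units among Mes and 0.96 among Epi lines, the narrowest ranges of the 8 tested members.

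Col5a3, the chain found in a rarer form of collagen V, was higher in every Mes line than in any Epi line. At chr9:20574592-20574651 (mm9, minus strand) its signal was 9.02 in Mes1, 8.56 in Mes2, 7.81 in Mes3, 10.10 in Mes4 and 9.45 in Mes5. It was 3.15 in Epi1, 4.39 in Epi2, 6.73 in Epi3, 4.21 in Epi4 and 4.63 in Epi5. Epi3 stood closest to the Mes lines, and Epi1 lay little above the lowest signal above background on its array (2.68). The means were 8.99 ± 0.87 in Mes and 4.62 ± 1.31 in Epi lines (SD, n = 5 each), a difference of 4.37 (SE 0.62), or 20.6-fold, and 4.57 within slide 2. Its other probe was above background on 5 Mes and 0 Epi arrays and at least 1.46-fold higher in Mes lines. With normexp background correction the difference of the brightest probe was 1.97, and with the mean over both probes it was 3.06.

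Col11a1, a chain of collagen XI that nucleates thin fibrils, varied mainly among the Mes lines. At chr3:113922153-113922211 (mm9, plus strand) it gave 11.66 in Mes1, 6.86 in Mes2, 8.27 in Mes3, 5.27 in Mes4 and 12.16 in Mes5. The Epi lines gave 10.78 in Epi1, 9.67 in Epi2, 11.92 in Epi3, 11.36 in Epi4 and 11.76 in Epi5. Mes1 lay inside the Epi range and Mes5 above it, while Mes2, Mes3 and Mes4 lay below every Epi line. The means were 8.84 ± 2.999 in Mes and 11.10 ± 0.91 in Epi lines (SD, n = 5 each), a difference of -2.25 (SE 1.22). A further probe kept this order in the Mes lines, with 9.05 in Mes5, 8.60 in Mes1, 5.03 in Mes3, 3.69 in Mes2 and 0.47, below background, in Mes4. Without Mes4, the lowest line, the difference of the brightest probe was -1.36.

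Of the FACIT collagens, Col12a1 was expressed throughout and Col14a1 was not detected. Col12a1, which bridges fibrils to other matrix proteins, was measured at chr9:79447270-79447329 (mm9, minus strand). It averaged 11.60 ± 0.66 in Mes and 12.48 ± 0.57 in Epi lines (SD, n = 5 each), a difference of -0.88 (SE 0.35), with Mes4 and Mes5 inside the Epi range. Its second probe differed by -1.20 (SE 0.34). The 2 probes of Col14a1, a collagen bound to the surface of collagen I fibrils, were well above background on 0 of 10 arrays, with signals of 0.22 to 0.77 in Mes and 0.18 to 1.54 in Epi lines.

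**Figure D3:**
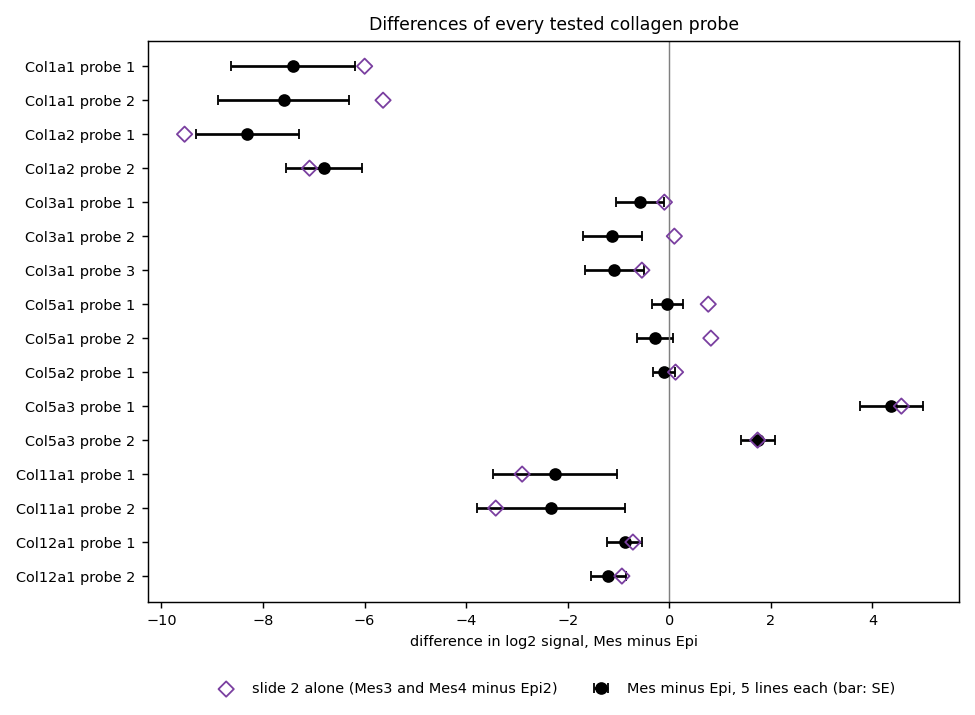
Difference in log2 signal, Mes minus Epi, for the 16 tested collagen probes, listed from the brightest probe of each gene downward. Filled points are the difference over 5 Mes and 5 Epi lines with bars of 1 SE, and open diamonds are slide 2 alone (Mes3 and Mes4 minus Epi2). The collagen I probes lie at the far left and the Col5a3 probes at the right. The slide 2 values of Col5a1, Col5a2 and the second Col3a1 probe lie on the other side of 0 from their filled points.

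Over the set, 8 of the 9 genes and 16 of the 21 probes passed the filter on low signals, and 14 of those 16 probes were lower in Mes lines. At an adjusted p under 0.05, 2 of the 8 genes were lower in Mes lines (against 12.7% of all tested genes) and 1 was higher (against 15.7%). The same 2 genes lay lower without overlap between groups (against 8.31% of all tested genes) and the same gene lay higher (against 10.6%), so 3 of 8 did not overlap in either direction (against 18.9%). Since this contrast chose the genes, nothing is read from these counts. The median difference of the 8 genes was -0.73, beside 0.03 over all tested genes.

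Several members shared their lowest lines within a group, which the choice of genes did not use. Mes2 and Mes3 were the lowest Mes lines for 5 of the 8 tested members, which were Col1a2, Col3a1, Col5a2, Col5a3 and Col12a1. They were the lowest pair for 15.4% of all tested genes. Epi1 and Epi2 were the lowest Epi lines for 6 of the 8, which were Col1a1, Col1a2, Col3a1, Col5a1, Col5a2 and Col11a1, against 14.9% of all tested genes. The pairs of lines were not fixed in advance and members are not independent of each other, so these shares carry no test. Once group means were removed, the most alike pairs over the 10 lines were Col3a1 with Col12a1 (r = 0.79), Col1a1 with Col5a2 (r = 0.79) and Col5a3 with Col12a1 (r = 0.75). The least alike were Col5a1 with Col11a1 (r = -0.28), Col1a2 with Col5a1 (r = -0.16) and Col11a1 with Col12a1 (r = 0.08).

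Genes whose deviations from the group means most closely followed the mean deviation of Col1a1 and Col1a2 were sought over all 13202 tested genes. That mean was highest in Mes1 (2.20) and lowest in Epi1 (-2.64). Col1a1 itself followed it at r = 0.85 and Col1a2 at r = 0.78, while the 2 genes correlated with each other at r = 0.34. The mean rests mainly on Col1a2 in Mes lines (SD 2.54 against 0.92) and on Col1a1 in Epi lines (SD 2.99 against 0.56). The closest genes over the 10 lines were Trp53i13 (r = 0.96), Copz2 (r = 0.95), Glt28d2 (r = 0.95), Gmppa (r = 0.95) and Cstad (r = 0.95). Copz2, a subunit of a coat for transport vesicles between the Golgi and the endoplasmic reticulum, had 10.19 in Mes1, 7.997 in Mes2, 8.22 in Mes3, 9.44 in Mes4 and 9.62 in Mes5. Its Epi values were 10.18 in Epi1, 10.99 in Epi2, 11.45 in Epi3, 11.87 in Epi4 and 11.77 in Epi5. Mes2 and Mes3 were lowest among Mes lines and Epi1 and Epi2 lowest among Epi lines. Gmppa, a regulatory subunit in the supply of mannose for protein glycosylation, had the same pairs lowest, with 9.83 in Mes3 and 11.39 in Mes1, and with 10.60 in Epi1 and 11.50 in Epi4. The most opposed genes were Etf1, the factor that ends translation at stop codons (r = -0.98), Aebp2, a cofactor of the Polycomb repressive complex (r = -0.96), and Fbxl14, a ubiquitin ligase subunit (r = -0.95). The r of these genes are the extremes of many and share 10 arrays.

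The chromosomal setting of the members was examined by a rule chosen after the values were seen, taking the 3 nearest tested genes on each side of each member. Col5a3 and Col12a1 lie on chromosome 9, where 58.1% of 752 tested genes were called higher in Mes lines and 2.66% lower, with a median difference of 0.71. All 12 genes around Col5a3 and Col12a1 were higher in Mes lines. Beside Col5a3 they included Ubl5 (0.46), Fbxl12 (0.66), Angptl6 (2.67), Shfl (5.30) and Ppan (1.08). The difference of Col5a3 itself (4.37) exceeded all of its 6 neighbours except Shfl. Beside Col12a1, a gene lower on average in Mes lines, they ran from 0.35 for Eef1a1 to 1.79 for Cd109. Whether the level of the chromosome has a part in the value of Col5a3 was not tested.

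Of the 30 distinct neighbours of the other members, 2 were called higher in Mes lines (against 15.7% of all tested genes) and 5 lower (against 12.7%), and nothing is read from these counts. Among the 6 neighbours of Col1a2, only Sgce was called (-1.10, adjusted p = 0.0304), and among those of Col1a1 only Samd14 (-0.84, adjusted p = 0.0245). Both differences were small beside -8.31 for Col1a2 and -7.41 for Col1a1. Col3a1 and Col5a2 lie next to each other on chromosome 1 on opposite strands, with their probes 27.97 kb apart. Their differences of -0.57 and -0.11 were both small, and their deviations over the 10 lines correlated at r = 0.68.

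**Figure D4:**
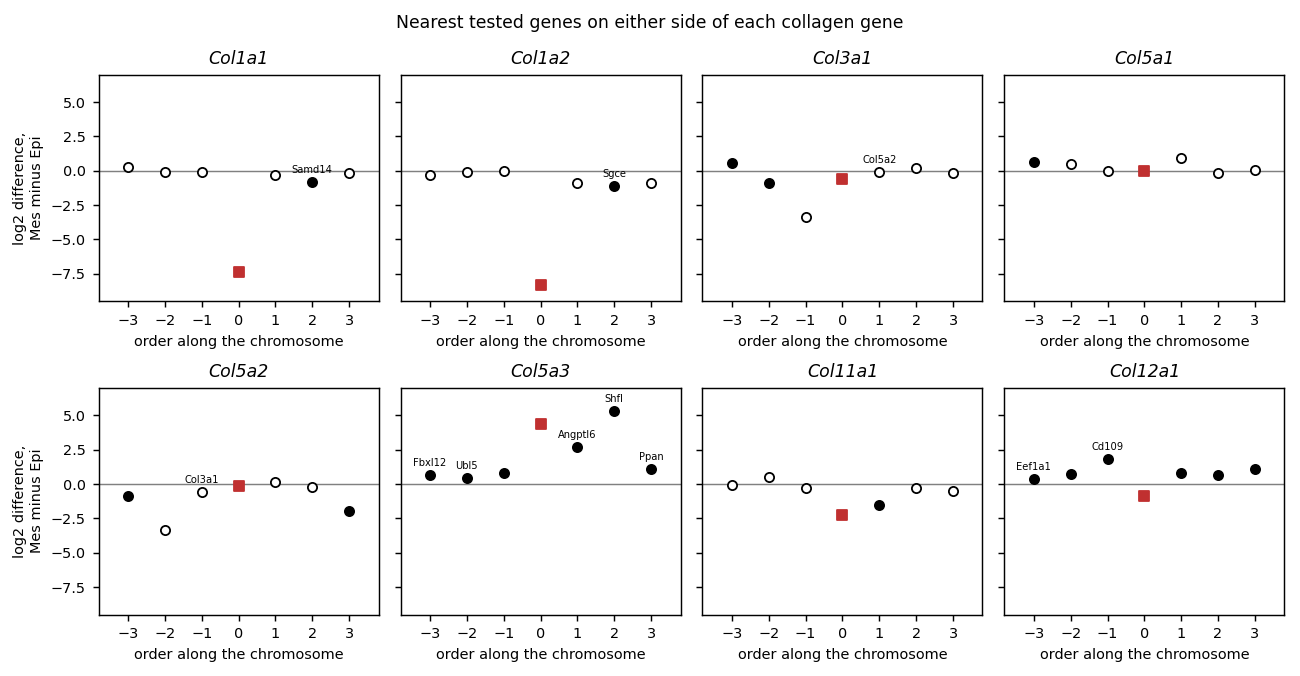
Difference in log2 signal, Mes minus Epi, of each tested collagen gene (red square at 0) and of the 3 nearest tested genes on either side, in order along the chromosome. Filled circles passed an adjusted p under 0.05, open circles did not, and some are labelled by gene. All 12 genes around Col5a3 and Col12a1 are filled and above 0, while Col1a1 and Col1a2 lie far below all of their own neighbours.

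Other genes of collagen biology were taken from 6 lists, with calls from the same limma fit over all tested probes. Over the whole table, 28.4% of tested genes were called, 15.7% as higher and 12.7% as lower in Mes lines. With slide as a fixed block, which leaves Epi2 as the only Epi line compared within a slide, 97 genes were called in all and none in these lists. For genes named from the lists, the difference within slide 2 is given where it is over 1.5 times larger or smaller than that over all lines, and for a few others.

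Of the genes that fold, modify, secrete, trim and crosslink collagen, 7 were lower and 2 higher in Mes lines among 28 tested of 35 listed. The median difference of this list was -0.22, beside 0.03 over all tested genes. Loxl2, an oxidase that starts crosslinks between collagen chains, had 12.23 in Mes1, 3.62 in Mes2, 3.25 in Mes3, 3.63 in Mes4 and 8.68 in Mes5. It had 10.92 in Epi1, 10.35 in Epi2, 12.41 in Epi3, 10.34 in Epi4 and 11.88 in Epi5. Mes1 thus lay among the Epi lines, and Mes2, Mes3 and Mes4 lay far below them. The difference was -4.90 (SE 1.61, limma adjusted p = 0.0443). That call ended without Mes2, Mes3, Mes4 or any single Epi line (adjusted p of up to 0.101). It also ended with normexp (-2.72, adjusted p = 0.0701), without the filter on dim probes, with a floor of 16, with a trended robust fit and with the replicate block (adjusted p = 0.0527 to 0.0853).

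Loxl3, a relative of Loxl2, and P4ha3, a subunit of the hydroxylase that stabilises the collagen helix, were lower in every Mes line than in any Epi line. P4ha3 averaged 6.15 ± 0.52 in Mes and 7.70 ± 0.38 in Epi lines (SD, n = 5 each), a difference of -1.56 (SE 0.27, limma adjusted p = 0.00291), and -0.88 within slide 2. Loxl3 averaged 6.74 ± 0.63 in Mes and 7.96 ± 0.35 in Epi lines (SD, n = 5 each), a difference of -1.23 (SE 0.30, limma adjusted p = 0.0132). Fkbp14, a prolyl isomerase of the endoplasmic reticulum, differed by -1.44 (SE 0.43, limma adjusted p = 0.0309), but by -0.07 within slide 2. Its call ended when Mes2, Mes3 or any of Epi3 to Epi5 was left out, with adjusted p at most 0.073, and when dim probes were kept.

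The higher genes of this list were Ppib, another prolyl isomerase, and Crtap, a subunit of the complex that modifies collagen prolines together with Ppib. Ppib averaged 14.59 ± 0.22 in Mes and 13.63 ± 0.18 in Epi lines (SD, n = 5 each), a difference of 0.96 (limma adjusted p = 0.00173). Crtap differed by 0.56 (limma adjusted p = 0.02). Both lie on chromosome 9. Serpinh1, a chaperone dedicated to collagen, was above background on 0 Mes and 4 Epi arrays and was not tested. Its means were 1.13 ± 0.62 in Mes and 3.06 ± 1.01 in Epi lines (SD, n = 5 each). Without Mes2, Mes3, Epi3 or Epi4, the number of called genes in the list was 4.

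Receptors that bind fibrillar collagen included 4 genes lower and 0 higher in Mes lines, of 10 tested out of 13 listed, with a median difference of -1.15. Ddr1, a receptor tyrosine kinase switched on by collagen, had 10.09 in Mes1, 9.19 in Mes2, 9.73 in Mes3, 10.17 in Mes4 and 10.08 in Mes5. It had 11.46 in Epi1, 11.32 in Epi2, 11.54 in Epi3, 11.17 in Epi4 and 11.53 in Epi5. No Mes line reached the lowest Epi line, and the difference was -1.55 (SE 0.20, limma adjusted p = 0.000743), with -1.37 within slide 2. Ddr2, its relative that binds mainly fibrillar collagens, averaged 10.58 ± 0.34 in Mes and 11.52 ± 0.36 in Epi lines (SD, n = 5 each). The difference of Ddr2 was -0.93 (SE 0.22, limma adjusted p = 0.011), a call that ended with the mean over its probes.

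The other called receptors lost their calls when single lines were left out. Itga10, a subunit of a collagen-binding integrin, was above background on 2 Mes and 5 Epi arrays and at least 1.39-fold lower in Mes lines (limma adjusted p = 0.0468). Sdc1, a syndecan that binds collagen through its sugar chains, differed by -0.94 (limma adjusted p = 0.0321). The call of Itga10 ended without Mes2, Mes4, Mes5 or any single Epi line (adjusted p of up to 0.1), and with 75th percentile scaling, normexp (-0.05, adjusted p = 0.369), no filter on dim probes and the replicate block. That of Sdc1 ended without any single line other than Mes1, Mes5 and Epi2, with adjusted p at most 0.0725, and when dim probes were kept. Without Mes2, Mes4, Epi1, Epi3, Epi4 or Epi5, 2 genes of the list were called.

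Among genes of collagen breakdown, uptake and its inhibitors, 2 of 7 tested out of 13 listed were lower and 0 higher in Mes lines, with a median of -0.64. Both were inhibitors of metalloproteinases. Timp1 averaged 14.91 ± 1.43 in Mes and 16.71 ± 0.48 in Epi lines (SD, n = 5 each), a difference of -1.80 (limma adjusted p = 0.0456). Timp2 averaged 16.05 ± 0.40 in Mes and 16.69 ± 0.20 in Epi lines (SD, n = 5 each), a difference of -0.64 (limma adjusted p = 0.0376). Neither call held throughout. Timp1 lost it without Mes2, Mes3, Mes5 or any single Epi line (adjusted p of up to 0.101), and Timp2 without Mes2, Mes3, Mes4, Epi2, Epi3, Epi4 or Epi5 (up to 0.0865). Both lost it when dim probes were kept and with the replicate block, and Timp1 also with normexp, a floor of 16 and a trended robust fit. Leaving out 1 line changed the count for this list to between 0 and 3.

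No gene of the fibril partners, the proteoglycans and matrix proteins that bind collagen fibrils, was called by limma among 12 tested of 20 listed, although the median was -0.65. The largest differences were those of Prelp (-3.73, SE 1.48, limma adjusted p = 0.084) and Fmod (-3.57, SE 1.44, limma adjusted p = 0.0888), both small proteoglycans with leucine-rich repeats. Within slide 2 they were -6.83 for Prelp and -1.96 for Fmod. Fmod had 3.42 to 7.23 in Mes and 3.68 to 11.64 in Epi lines, and its lowest Epi value was that of Epi1, the line with the lowest Col1a1 among Epi lines. Without Epi1 both passed, with adjusted p = 0.0191 for Prelp and 0.00905 for Fmod, and Prelp also passed without Mes5 (adjusted p = 0.0442). At an unadjusted p under 0.05, 3 of the 12 passed.

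No further fibrillar or FACIT collagen gene was called by limma among 5 tested of 12 listed, and the median was 0.18. At an unadjusted p under 0.05, 0 of the 5 passed. The largest differences were those of Col2a1, the collagen of cartilage (-0.64, limma adjusted p = 0.471, and -0.05 within slide 2), and Col20a1, of the FACIT class (0.57, limma adjusted p = 0.392, and -1.40 within slide 2). Col27a1, a fibrillar collagen of cartilage, was above background on 1 Mes and 4 Epi arrays and was not tested. Its means were 1.08 ± 0.98 in Mes and 4.08 ± 1.76 in Epi lines (SD, n = 5 each). Col24a1, Col9a1 and Col19a1 were above background on 0 of 10 arrays.

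**Figure D5:**
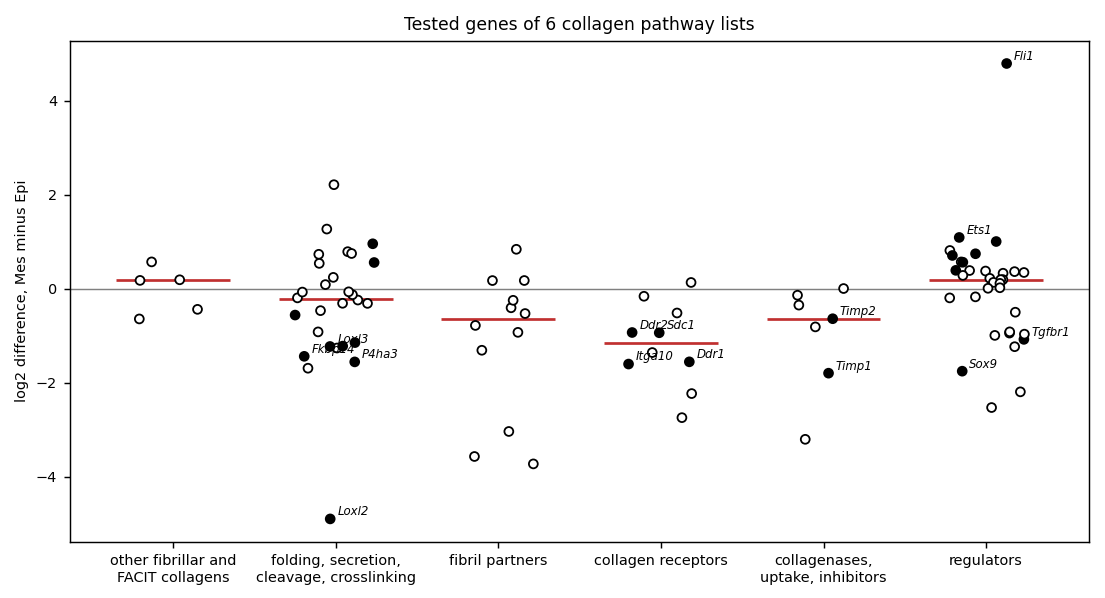
Difference in log2 signal, Mes minus Epi, of every tested gene in 6 lists of collagen biology, spread sideways for legibility. Filled points passed an adjusted p under 0.05 over all tested probes, red lines are list medians, and labels mark called genes taken by the naming rule. The called receptors, metalloproteinase inhibitors and most called modifying enzymes lie below 0, and Fli1 lies at the top of the regulators.

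Regulators of collagen genes were called in both directions, with 7 higher and 2 lower in Mes lines of 34 tested out of 37 listed, and a median of 0.19. Fli1, an ETS factor that represses the collagen I gene COL1A2 in human fibroblasts, had 8.23 in Mes1, 3.18 in Mes2, 4.37 in Mes3, 3.68 in Mes4 and 7.39 in Mes5. Among Epi lines it was above background on 0 of 5 arrays, with signals of 0.29 to 1.46. All Mes lines lay above all Epi lines, and the level in Mes lines was at least 7.22-fold higher (limma adjusted p = 0.00465). Within the Mes lines, Mes1 and Mes5, which had the most Fli1, also had the most Col1a2. Col1a1 was highest in Mes1 (6.31) and second-lowest in Mes5 (4.46). A relation of Fli1 to the collagen I genes was not tested. The call of Fli1 ended with a floor of 16 and with normexp background correction. With normexp the log2 difference was 0.62 (limma adjusted p = 0.144), so the bound of 7.22-fold holds for the main processing only.

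Ets1, the founding member of the same family, was higher in every Mes line than in any Epi line. It averaged 10.74 ± 0.34 in Mes and 9.65 ± 0.28 in Epi lines (SD, n = 5 each), a difference of 1.09 (SE 0.20, limma adjusted p = 0.00356), and 0.64 within slide 2. Fli1 and Ets1, like Col5a3, lie on chromosome 9. Sox9, an activator of cartilage collagen genes, averaged 9.44 ± 0.94 in Mes and 11.20 ± 0.63 in Epi lines (SD, n = 5 each), a difference of -1.75 (SE 0.45, limma adjusted p = 0.0169), a call that ended with the replicate block. Tgfbr1, a receptor for TGF-beta, differed by -1.08 (SE 0.24, limma adjusted p = 0.00879), and by -1.76 within slide 2. The other called regulators, all higher in Mes lines, were Smad7 (1.01), Ybx1 (0.74, and 0.19 within slide 2), Smad4 (0.71), Rfx5 (0.56) and Sp1 (0.39).

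Markers of cell types that make or lack fibrillar collagen were set beside these values. Of 8 mesenchymal markers all were above background on all 10 arrays, and Vim averaged 16.16 ± 0.29 in Mes and 16.27 ± 0.39 in Epi lines (SD, n = 5 each). The groups did not overlap for Zeb2, higher in Mes lines (0.98, limma adjusted p = 0.00148), or Zeb1, lower (-0.56, limma adjusted p = 0.0355). No other marker of this list was called. Of 8 epithelial markers Epcam, Cldn4, Ocln and Esrp1 were above background on 0 of 10 arrays, while Cdh1 was above it on 0 Mes and 3 Epi arrays and Krt8 on 0 Mes and 4 Epi arrays. Krt18 was above background on 4 Mes and 5 Epi arrays, with means of 3.67 ± 1.14 in Mes and 4.91 ± 1.67 in Epi lines (SD, n = 5 each). Krt19 was above it on 2 Mes and 5 Epi arrays, with means of 3.15 ± 0.93 in Mes and 5.36 ± 2.48 in Epi lines (SD, n = 5 each, limma adjusted p = 0.135). Of 8 neuroendocrine markers, Neurod1 and Insm1 were above background on 0 of 10 arrays.

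Of 12 fibroblast markers, 6 were above background on all 10 arrays and 0 were absent from every array. The summed signal of the list on the linear scale was 124034 to 301051 in Mes and 61574 to 260171 in Epi lines, with overlap. That sum rests mainly on S100a4, at 16.45 to 17.97 in Mes and 15.05 to 17.77 in Epi lines on the log2 scale. Fap, a protease of activated fibroblasts, was above background on 4 Mes and 2 Epi arrays, with signals of 0.84 to 8.42 in Mes and 0.38 to 3.34 in Epi lines. Pdgfra, a growth factor receptor of fibroblasts, differed by -1.35 (limma adjusted p = 0.0269), and Acta2, smooth muscle actin, by -0.87 (limma adjusted p = 0.0151). Mfap5, a protein of elastic microfibrils, was above background on 0 Mes and 4 Epi arrays. Dcn was above it on 1 Mes and 4 Epi arrays, and Lum on 0 Mes and 1 Epi array. The endothelial markers Pecam1, Cdh5 and Tie1 were above background on 0 of 10 arrays, while Kdr was above it on 4 Mes and 2 Epi arrays and Tek on 3 Mes and 4 Epi arrays. Vwf, above background on 2 Mes and 5 Epi arrays, differed by -2.45 (limma adjusted p = 0.000168). Of 8 leukocyte markers, Lyz2 and Itgam were above background on 0 of 10 arrays and 5 were above it on all 10. Among those 5, Cd68 differed by 1.26 (limma adjusted p = 0.00371) and Csf1r by -2.21 (limma adjusted p = 0.00173). The part of these markers in the collagen values was not tested.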

How the data were processed

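Labelled RNA of 10 lines was hybridised to 1-colour Agilent arrays, per the labels' protocols. The deposited intensity values were made with Agilent Feature Extraction 10.7, per the submitters' processing notes (10.7.3.1 per the file headers), and are background-subtracted per the file headers. The authors also deposited log2 values, quantile-normalized in GeneSpring 11 per the series text, in 2 identical tables, which named 34893 of 41174 probes and gave mm9 coordinates. Their columns had a median of 5.07 and followed each array's own scanner values (r of 0.9996 to 0.9999), so the scale is log2, uncentred. By Entrez ID, 33405 probes took current symbols from RefSeq (GRCm38.p6). Exon or UTR positions of probes are not given in the sources used here.

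Processed intensities were quantile-normalized, floored at 1 and log2-transformed, after 1639 control spots and 46 to 87 flagged spots per array were left out. No spot was saturated, and replicate spots had median coefficients of variation of 4.26% to 5.72%. Differences were fitted with limma 3.58.1 in R 4.3.3 (lmFit and eBayes), with Benjamini-Hochberg adjustment over all tested probes and a threshold of 0.05. On data simulated over 24475 probes for Mes minus Epi, 50 of 100 changes of 1 log2 unit and 84 of 100 changes of 2 were recovered, with 7 false calls. The simulated noise was normal and independent between probes and arrays, with no slide effect and no likeness between lines. The false calls therefore do not cover what slides or related lines may add in the real data.

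The collagen genes and all lists were chosen with earlier results of these data known. Named genes were all 9 collagens. In each list, up to 4 called genes with the largest differences were named, or up to 2 where none was called. So were the 5 genes most like and 3 least like the collagen I mean, and markers. Neighbouring genes, Ppib, Crtap, Serpinh1, Col27a1, the untested collagens and the other called regulators were named after their values were seen. Some genes are not reported here, while counts include them. The alternatives tried were scaling to the 75th percentile, normexp (offset 50, on median spot and local background intensities), the deposited log2 table, other filters and floors, a mean over probes, array weights, trended robust variances, a block for the replicate number, a block for the slide (fixed, or random with statmod 1.5.0), the arrays of slide 2 only, and each line left out.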

Additional observations from a re-analysis of the deposited data

Results flagged for a closer look

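In 68 groups of 5 lines examined, over the collagen genes and the named genes of the lists, a line stood apart from the other 4 by Dixon's test in 2, where chance gives about 1 in 20. Sdc1 had a signal of 10.78 in Mes4, below the other Mes lines, of which the nearest had 11.72. Fli1 had a signal of 1.46 in Epi3 against 0.41 in the nearest Epi line, and all 5 of these values were below background.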

How the results depend on the processing

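The differences of Col1a1 (-8.55 to -5.12), Col1a2 (-9.55 to -7.49), Col3a1 (-0.93 to -0.10), Col11a1 (-3.11 to -1.36), Col12a1 (-1.08 to -0.70) and Col5a3 (1.97 to 4.89) kept their sign in all 23 alternatives. Those of Col5a1 (-0.23 to 0.77) and Col5a2 (-0.32 to 0.12) changed sign in 7 and 3. All of these are values of the brightest probe or of the mean over probes, and the second Col3a1 probe had 0.10 within slide 2. The 23 alternatives are not separate checks of sign. The trended robust fit and the replicate block leave the difference of a probe unchanged, and the fixed slide block rests on slide 2 alone. Normexp gave the smallest values for Col1a1 (-5.12) and Col5a3 (1.97). The median over the tested collagens ran from -0.98 to -0.41.

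Several counts moved by over 1.5 times, and the cause was not tested unless stated. Slide as a fixed block called 97 genes and 0 in the lists of folding, receptors, collagenases and regulators. Slide 2 alone, where Epi2 was assumed to vary like the Mes lines, called 0 genes with limma (2290 at an unadjusted p under 0.05), 0 in each of those lists, and left 5 collagens without overlap, as fewer lines were compared. In both, Col20a1 was -1.40. Fibril partners had 1 call with 75th percentile scaling and 3 with array weights, which also called 7 receptors. Without the filter on dim probes, 2 other collagens, 2 receptors and 0 collagenase genes were called. Collagenase genes had 1 call with a floor of 16 and 1 with a trended robust fit. With each line left out, calls ran from 2665 to 4108 genes, 4 to 9 folding genes, 2 to 5 receptors, 0 to 3 collagenase genes, 0 to 3 fibril partners and 7 to 11 regulators. With a floor of 16, Itga10 lay at the floor on all arrays and gave no value. The 5 genes most like the collagen I mean stayed among the 100 most alike throughout.

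The replicate number as a block called 2949 genes, 2 fibril partners and 0 collagenase genes. Lines with the same number did not deviate together (r of 0.01 to 0.04 over 24475 probes, and 0 of 5 correlated best with their own number), so the numbers were not treated as pairs. Low signal limits Col14a1, Fli1 in Epi lines and the dimmer probes of Col1a1, Col1a2 and Col5a3, whose folds are bounds. Those bounds were taken from the main processing alone.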
